A study of Mus musculus with 20 samples.

Results

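The cytosolic ribosomal protein genes encode the proteins of the ribosome that works outside mitochondria. They were taken as all genes whose symbol begins with Rpl or Rps and a digit, together with Rplp0, Rplp1, Rplp2 and Rpsa. Symbols that contain -ps (a mark of pseudogenes) and S6 kinases were left out. A mean level of at least 1 CPM (counts per 1000000 counts) was required. In the first of 2 count tables the rule fitted 86 symbols and 83 genes of 26608 reached that level; Rpl10l, Rpl39 and Rpl39l did not. In the second table the rule fitted 92 symbols and 89 genes of 30809 reached it; Rpl39l, Rpl32l and Rpl36al did not. All 83 and all 89 passed the filter on low counts, so every gene described here was tested. The tables share 82 of these genes. Some pseudogenes without -ps in their symbol remained. In the second table Rpl6l, Rps3a2, Rps3a3, Rpl37rt and Rps4l are annotated as processed pseudogenes. The first table holds Rps4l under the name Rps4y2.

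The libraries were made from whole kidneys of aged mice that had received a bone marrow transplant, 1 library per animal. The transplant set the blood system to Control or to LOY, loss of the Y chromosome in blood cells. The first table compares 6 Control kidneys (animals 3, 11, 12, 13, 16 and 17) with 6 LOY kidneys (animals 5, 8, 9, 10, 14 and 18). The second compares 4 LOY kidneys given a control compound (animals 6, 8, 9 and 10) with 4 LOY kidneys given ABT-263 (animals 15, 16, 17 and 18), an inhibitor of BCL-2 family proteins that is used to remove senescent cells. How loss of Y was made, the share of blood cells that carried it, strain, age in months, dose and time of treatment were not stated, nor whether animals of 1 number in the 2 tables are the same animal. The condition belongs to the transplanted blood cells, while a kidney library also holds RNA of the host's kidney cells.

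Each ribosome holds a large and a small subunit, with about 1 copy of each protein, and a stalk on the large subunit in which Rplp1 and Rplp2 bind Rplp0 and call in elongation factors. The genes are among the most strongly transcribed of any cell. Their mRNAs are short and begin with a run of pyrimidines (a TOP motif) through which mTOR signalling, acting by LARP1, sets their translation together. Free subunits have other roles: RPL5 and RPL11 with 5S rRNA bind MDM2 and so stabilise p53.

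Total gene counts were 13332563 to 19386408 per kidney in the first table and 14587809 to 20791633 in the second. Proximal tubule markers (Lrp2, Slc34a1 and others) summed to between 8380 and 21813 CPM over all kidneys of the first table and between 10044 and 14701 CPM in the second, so the defining markers of the labelled tissue were present. Mitochondrially encoded genes took 7.91% to 11.1% of the counts in the second table, and the first held none. The tables do not share a scale: over the 82 shared genes the median level in the first was 1.85 times that in the second, and 9 genes stood more than 5-fold apart. Rpl24 averaged 351 CPM in the first and 2.60 CPM in the second, and Rps10 367 and 3.34 CPM. Ribosomal protein genes have many near-identical processed copies in the genome, and how reads that fit several copies were counted was not stated, so the level of any 1 gene is uncertain and levels were compared only within a table.

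The ribosomal protein genes together took 2.53% ± 0.372 of the counts in Control kidneys (SD, n = 6) and 3.47% ± 1.09 in LOY kidneys (SD, n = 6). Control kidneys had 3.27% (animal 3), 2.51% (animal 11), 2.29% (animal 12), 2.30% (animal 13), 2.50% (animal 16) and 2.34% (animal 17). LOY kidneys had 3.24% (animal 5), 5.53% (animal 8), 3.54% (animal 9), 3.35% (animal 10), 2.65% (animal 14) and 2.49% (animal 18). LOY animal 8 was far above all others, and LOY animals 5, 14 and 18 lay within the range of the Control kidneys. In whole tissue, more cells of a kind that is rich in these mRNAs and more of these mRNAs per cell cannot be told apart.

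**Figure D1:**
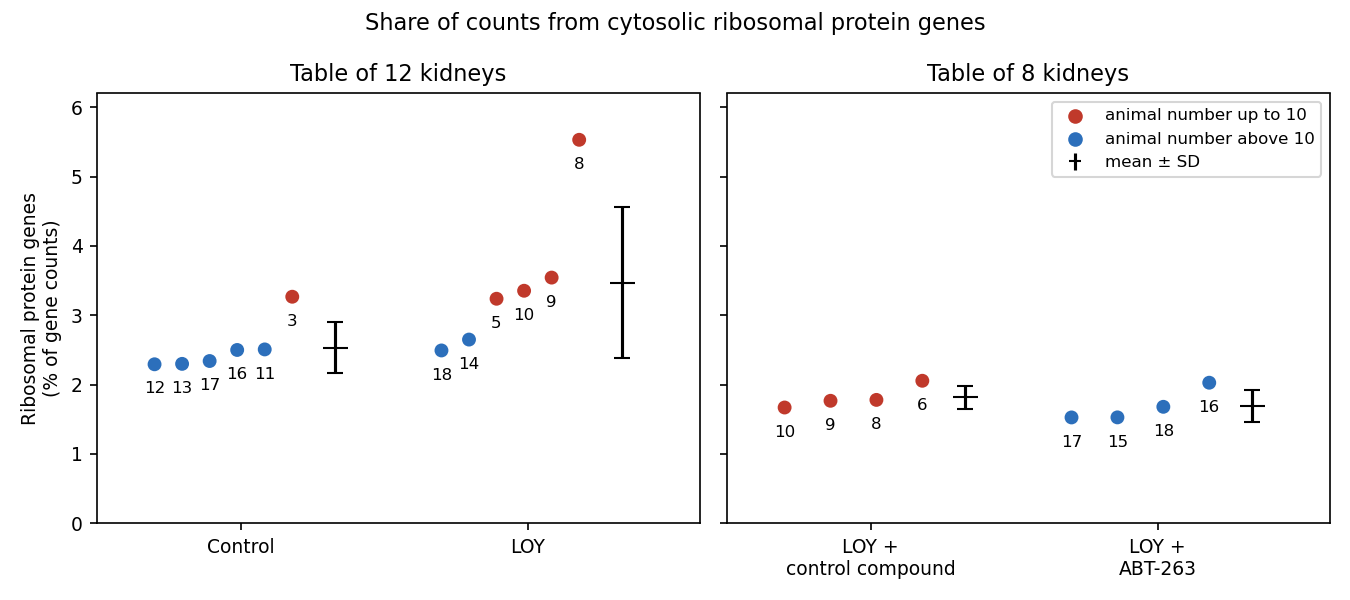
Percent of all gene counts taken by ribosomal protein genes in each kidney (points, in order of value within each group and labelled with the animal number), with mean ± SD of each group beside them; the y axis starts at 0. In the table of 12 kidneys the 5 animals numbered up to 10 lie between 3.24% and 5.53% and the 7 numbered above 10 between 2.29% and 2.65%; in the table of 8 kidneys the groups overlap.

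The log2 fold change of LOY against Control was above 0 for 81 of 83 ribosomal protein genes, with a median of 0.54, while 52.3% of all 14978 genes tested lay above 0 with a median of 0.02. None of the 83 passed the test in either direction (edgeR, adjusted p under 0.05 over all genes tested), where 1.18% of all genes tested did and 1.11% as higher in LOY. At an unadjusted p under 0.05, 63 of the 83 were higher and none lower, beside 13.5% of all genes that were higher. DESeq2 called 0, beside 5.78% of all genes, and voom with sample weights called 2, Rpl12 and Rps21, as higher, beside 7.19%. The lowest adjusted p was 0.141, for Rpl12. No gene had all LOY kidneys above all Control kidneys, which 1.56% of all genes tested had.

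Genes of the large subunit ran from −0.07 to 0.84 with 41 of 42 above 0 and a median of 0.55. Rpl12, a protein at the base of the stalk, had 245, 267 and 382 CPM as lowest, median and highest Control kidney and 285, 400.3 and 904 CPM in LOY kidneys. Its log2 fold change was 0.70 ± 0.24 (SE; edgeR adjusted p = 0.141), and the groups overlapped. Rpl27 had 208, 222 and 303 CPM in Control and 215, 328 and 715 CPM in LOY kidneys, with a log2 fold change of 0.65 ± 0.24. The X-linked Rpl36a had 91.5, 102 and 137 CPM against 98.0, 144 and 338 CPM, a log2 fold change of 0.67 ± 0.24. In these 3 genes the highest Control value was animal 3 and the highest LOY value animal 8.

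The largest log2 fold change of all belonged to Rpl36 (chromosome 17, 56613416 to 56614243, plus strand, GRCm38), at 0.84 ± 0.35 (edgeR adjusted p = 0.188). Control kidneys had 207, 221 and 327 CPM and LOY kidneys 213, 303 and 1121 CPM. LOY animal 8 held the 1121 CPM and the next LOY kidney 412 CPM; without animal 8 the log2 fold change was 0.28. Rpl28, on chromosome 7, had a like spread, with 378, 403 and 597 CPM in Control and 356, 554 and 1737 CPM in LOY kidneys. Its log2 fold change was 0.74 ± 0.32, and 0.26 without animal 8.

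Small subunit genes had the same centre, with 30 of 31 above 0 and a median of 0.55. Rps27, which carries a zinc finger, had 183, 236 and 277 CPM in Control and 223, 311 and 617 CPM in LOY kidneys, a log2 fold change of 0.58 ± 0.20 (edgeR adjusted p = 0.147). Rps12 had 316, 339.5 and 526 CPM against 327, 541 and 1042 CPM, at 0.64 ± 0.23. Rps21 (0.56 ± 0.20) and Rps23, a protein of the decoding centre (0.58 ± 0.21), completed the 4 small subunit genes of lowest p. The adjusted p of these 4 ran from 0.147 to 0.159, and in each of them the groups overlapped.

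The genes of the 3 stalk proteins had log2 fold changes between 0.22 and 0.61. Rplp1 had 527, 555 and 874 CPM in Control and 544, 783 and 1917 CPM in LOY kidneys, at 0.61 ± 0.27. Rplp2 stood at 0.54 ± 0.26 and Rplp0, the longer scaffold of the stalk, at 0.22 ± 0.14. Their adjusted p ran from 0.202 to 0.331. Control animal 3 was the highest Control kidney for all 3.

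Genes named for a known function, partner or disease lay on both sides of the median. Rps6, the substrate of S6 kinase, had 257, 296 and 337 CPM in Control and 291, 346 and 429 CPM in LOY kidneys, with a log2 fold change of 0.23 ± 0.11. Rps27a, which is made as a fusion with ubiquitin, stood at 0.47 ± 0.19. Rps19, mutated in Diamond-Blackfan anaemia, stood at 0.63 ± 0.27. Rpsa, also known as a laminin receptor, had 669, 714 and 1078 CPM in Control and 677, 1023 and 2273 CPM in LOY kidneys. Its log2 fold change was 0.57 ± 0.25. Rpl10, X-linked and needed for the joining of the subunits, stood at 0.33 ± 0.15. The partners Rpl5 and Rpl11 had unlike estimates, and the difference between them was not tested. Rpl5 had 329, 353 and 364 CPM in Control and 343, 366 and 410.3 CPM in LOY kidneys (0.07 ± 0.09). Rpl11 had 304, 319 and 427 CPM against 313, 399.6 and 1033 CPM (0.57 ± 0.26). LOY animal 8 held the 1033 CPM, and without it the log2 fold change of Rpl11 was 0.22 ± 0.14. None of these 7 genes passed the test.

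At the other end were genes with log2 fold changes near or below 0. Rpl4, the longest of the set by coding sequence, had 469, 490.3 and 522 CPM in Control and 418, 472 and 515 CPM in LOY kidneys, a log2 fold change of −0.07 ± 0.09. Rps4x, on the X chromosome, had 98.8, 115 and 127 CPM against 69.7, 113 and 130.3 CPM, at −0.06 ± 0.13. The lowest values of both, 418 and 69.7 CPM, came from LOY animal 8, the kidney in which most of the other genes were highest. Rpl3, which reaches towards the peptidyl transferase centre, stood at 0.04 ± 0.10, and Rps9 at 0.09 ± 0.13. Rpl13, at 29.6, 42.7 and 48.6 CPM in Control and 46.4, 51.9 and 56.1 CPM in LOY kidneys, had a log2 fold change of 0.31 ± 0.11 without a high value in animal 8. Rpl13 and Rps9 are among the 9 genes whose levels differ more than 5-fold between the tables.

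Per kilobase of coding sequence, the highest mean levels over all 12 kidneys were those of Rpl41 (3329 CPM per kilobase), the shortest member, Rplp1 (2260 CPM per kilobase) and Rpl28 (1404 CPM per kilobase). Among the lowest were Rpl3l (2.39 CPM per kilobase), a muscle form of Rpl3, and Rps9 (63.1 CPM per kilobase). Rpl41 had a log2 fold change of 0.27 ± 0.20. The symbol rule also caught 7 genes that are no standard subunit, with a median log2 fold change of 0.36 and a range of 0.19 to 0.62. Rpl22 had a log2 fold change of 0.37 ± 0.16 and its paralog Rpl22l1 one of 0.36 ± 0.22. Rps27l, a paralog of Rps27 that p53 activates, stood at 0.51 ± 0.20, Rpl36al at 0.36 ± 0.20, Rpl3l at 0.40 ± 0.36, and Rpl7l1 at 0.19 ± 0.10, beside 0.35 ± 0.16 for Rpl7. Rps19bp1, a nucleolar protein that binds RPS19 and is not part of the ribosome, stood at 0.62 ± 0.27, and a transcribed Rps4 copy on chromosome 6 (Rps4y2 in the table) at 0.21. None of the 7 passed the test.

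The genes moved together from kidney to kidney. With group means taken out, the median correlation between 2 of the 83 genes over the 12 kidneys was 0.95, and 78 of 83 had a correlation above 0.8 with the mean of the others. Depth, scaling and the kidney itself are shared by all these points. LOY animal 8 lay far above the other kidneys and weighs heavily in these correlations, which were not computed without it. The 4 genes below 0.5 were Rps4x (−0.78), Rpl4 (−0.51), Rpl13 (−0.03) and Rps9 (0.25). With animal 8 included, the kidney-to-kidney pattern was nearly that of 1 value per kidney. It was summarised as the median deviation of the genes from their own means on the log2 CPM scale. That value was 1.15 in LOY animal 8, 0.32 in LOY animal 9, 0.21 in LOY animal 5, 0.16 in Control animal 3 and 0.05 in LOY animal 10. It was −0.14 in LOY animal 14 and −0.32 in LOY animal 18, and from −0.33 to −0.21 in the other 5 Control kidneys.

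**Figure D2:**
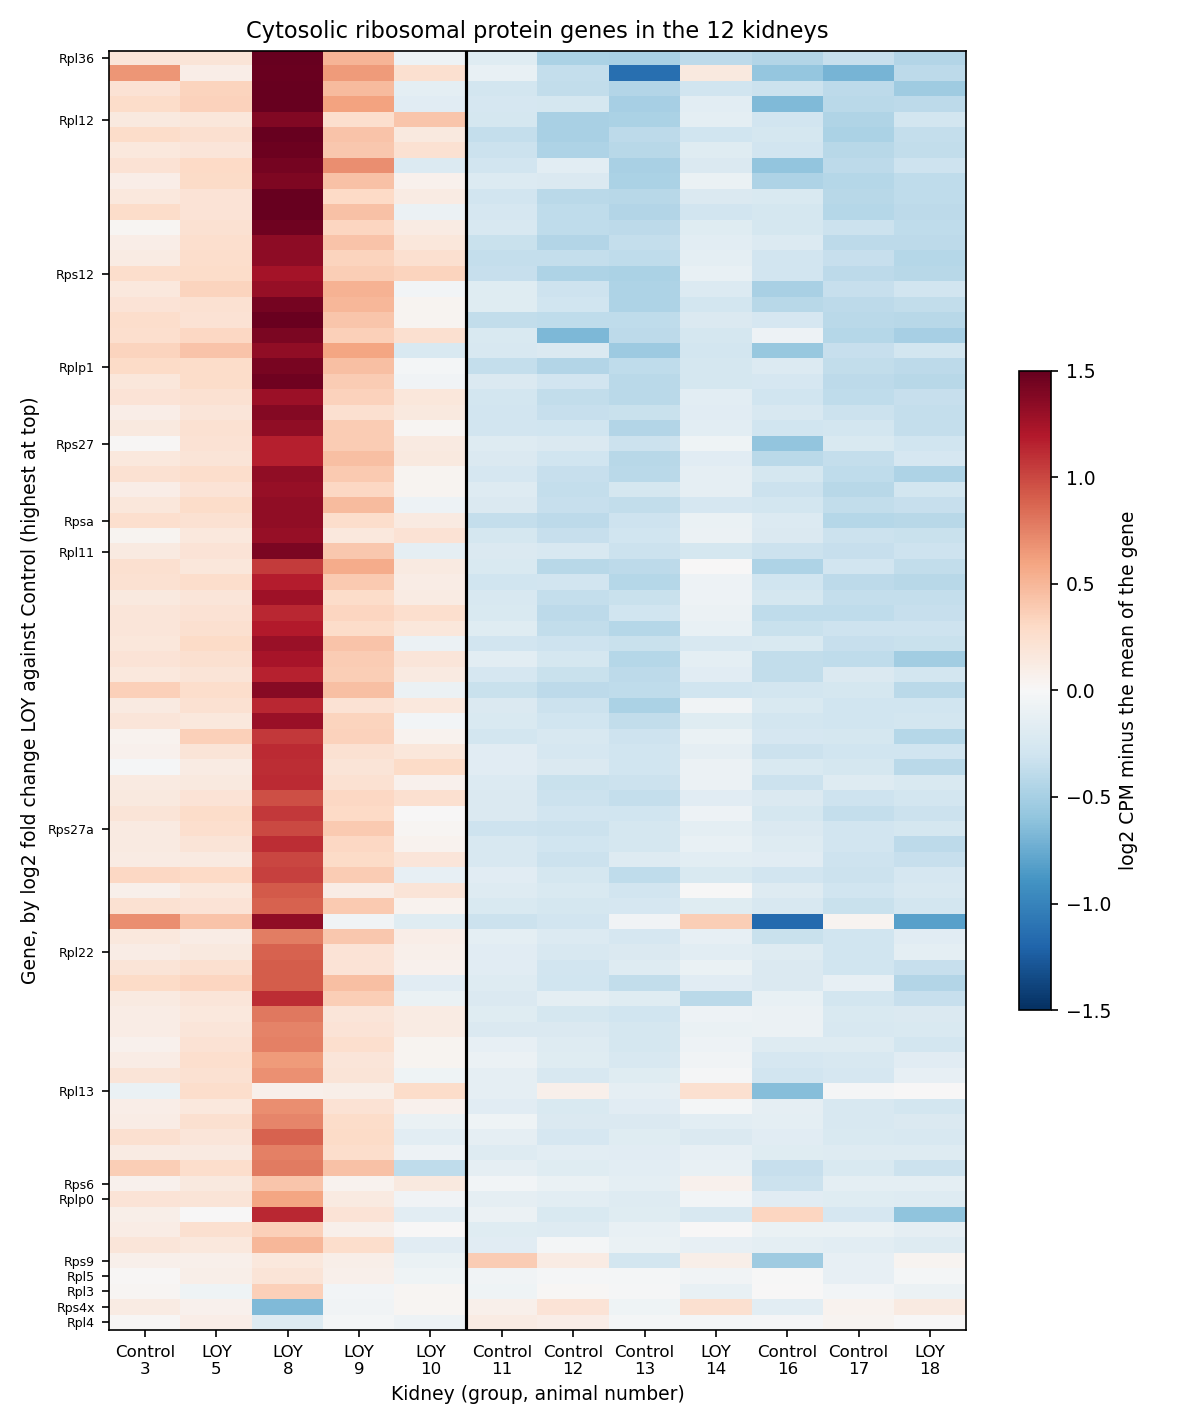
log2 CPM of each of the 83 ribosomal protein genes minus its own mean (colour) in the 12 kidneys, in order of animal number (x axis) and with genes in order of log2 fold change (y axis, some genes labelled); the black line divides numbers up to 10 from those above 10. Most genes are above their mean to the left of the line, LOY animal 10 least and LOY animal 8 most, and below it to the right, with Rpl4 and Rps4x at the foot as exceptions.

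The kidneys divided by animal number as well as by group. The 5 animals numbered up to 10 (1 Control, 4 LOY) had shares of 3.24% to 5.53% and the 7 numbered above 10 (5 Control, 2 LOY) shares of 2.29% to 2.65%, with no overlap. For 63 of 83 ribosomal protein genes every animal up to 10 lay above every animal above 10, which 5.38% of all genes tested did. Rps12 had 526 to 1042 CPM in animals up to 10 and 316 to 404 CPM in those above 10. Rplp2 had 286 to 785 CPM and 231 to 254 CPM. What the number stands for was not stated. The division at 10 was chosen because it separates the shares of these genes, so the values by number are a description with no test.

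With group and number in 1 edgeR fit, the term for numbers above 10 was negative for 81 of 83 genes. Its median was −0.65, beside 0.0019 over all genes tested. The term stood at −0.79 ± 0.19 for Rps12 and −0.85 ± 0.23 for Rplp2. Because the division was chosen on these genes, the sign follows largely from that choice. The errors do not allow for it, and the term is no test of number. Without LOY animal 8 the median was −0.46, and Rpl3, Rpl4, Rpl5, Rps4x, Rps9 and Rpl13 had values between −0.09 and 0.06.

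In the same fit the median for LOY against Control was 0.16 instead of 0.54, and none of the 83 passed for the group. With the division chosen on these genes, that 0.16 shows how far number and group overlap and is not a corrected size of the group difference. Without LOY animal 8 and with no number term the median was 0.26. With both it was 0.05. Among the 7 animals above 10 the median was 0.06, with 66 of 83 genes above 0. Rpl36 and Rpl28 stood at −0.04 and −0.05 there. Animals up to 10 include 1 Control kidney, so no such comparison was made among them.

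The difference followed the length of the coding sequence. Across the 82 genes with a coding length, Spearman's correlation of log2 fold change with length was −0.54, and −0.57 over the 76 standard subunits (a description across genes, which share libraries). The 19 standard subunits with the shortest coding sequences, 138 to 375 bases, had a median log2 fold change of 0.58. The 19 with the longest, 633 to 1257 bases, had a median of 0.31. Rpl3 and Rpl4 are the longest standard subunits and among the 3 lowest in log2 fold change, while Rpl41, the shortest, stood at 0.27.

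**Figure D3:**
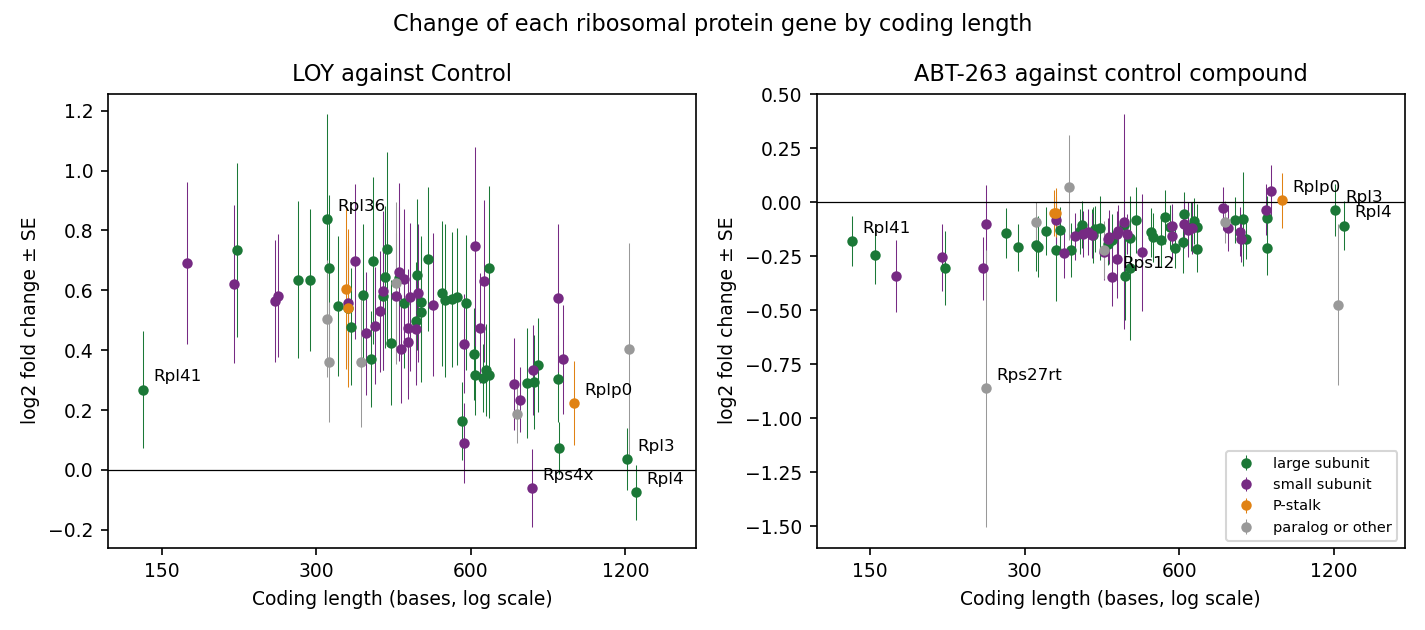
log2 fold change ± SE of each ribosomal protein gene (points, coloured by subunit) against coding length in bases on a log scale, for LOY against Control (left) and ABT-263 against control compound (right); the y scales differ. On the left Rpl4 at −0.07, Rps4x at −0.06 and Rpl3 at 0.04 lie lowest, and on the right most genes lie just below 0.

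Genes outside the set showed the same order. Of genes that are no ribosomal protein gene, the 173 with transcripts of up to 500 bases had a median log2 fold change of 0.40, and the 440 of 500 to 750 bases 0.34. The median was 0.02 for 2000 to 3000 bases and −0.15 above 5000 bases. With the trend of log2 CPM on transcript length taken out of each kidney, the median of the ribosomal protein genes was 0.18, with 75 of 83 above 0, and none passed the test. At an unadjusted p under 0.05 there were 24 of the 83, beside 22.9% of all genes tested in the same fit. LOY against Control then stood at −0.09 for both Rpl3 and Rpl41, and −0.10 for Rps9.

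**Figure D4:**
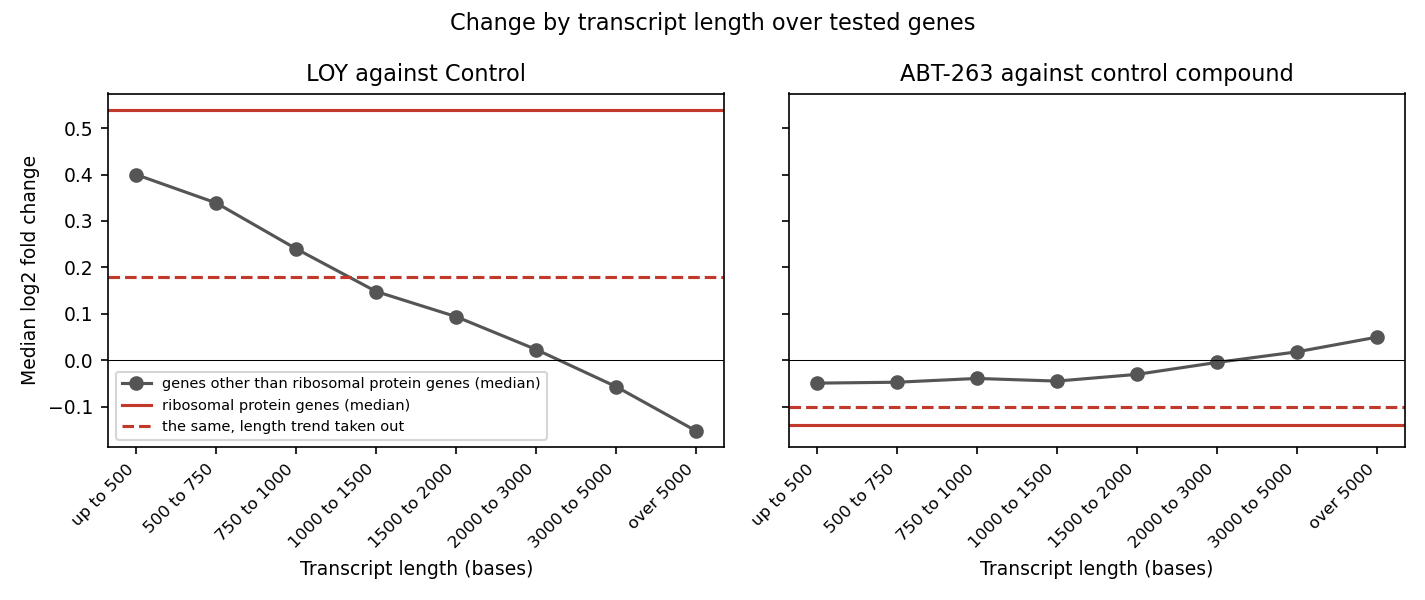
Median log2 fold change of tested genes outside the set by transcript length in bases (points), with the median of the ribosomal protein genes (solid line) and the same after the length trend was taken out of each kidney (dashed line). The left panel falls from 0.40 to −0.15 and the right panel runs from −0.05 to 0.05.

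In the first table, other genes of up to 750 bases ordered the kidneys nearly as the ribosomal protein genes did, with a smaller deviation in each. In LOY animals 8, 9 and 18 and Control animal 3 their median deviation was 0.91, 0.29, −0.27 and 0.14. The ribosomal protein genes had 1.15, 0.32, −0.32 and 0.16. Genes above 5000 bases went the other way, at −0.51 in LOY animal 8 and 0.15 in LOY animal 18. In the second table the short genes had 0.08 in animal 6 and 0.02 in animal 16. The ribosomal protein genes had 0.29 and 0.18 there. RNA integrity was not measured in the data used here, and the part of transcript length in the difference between groups was not tested beyond these values.

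**Figure D5:**
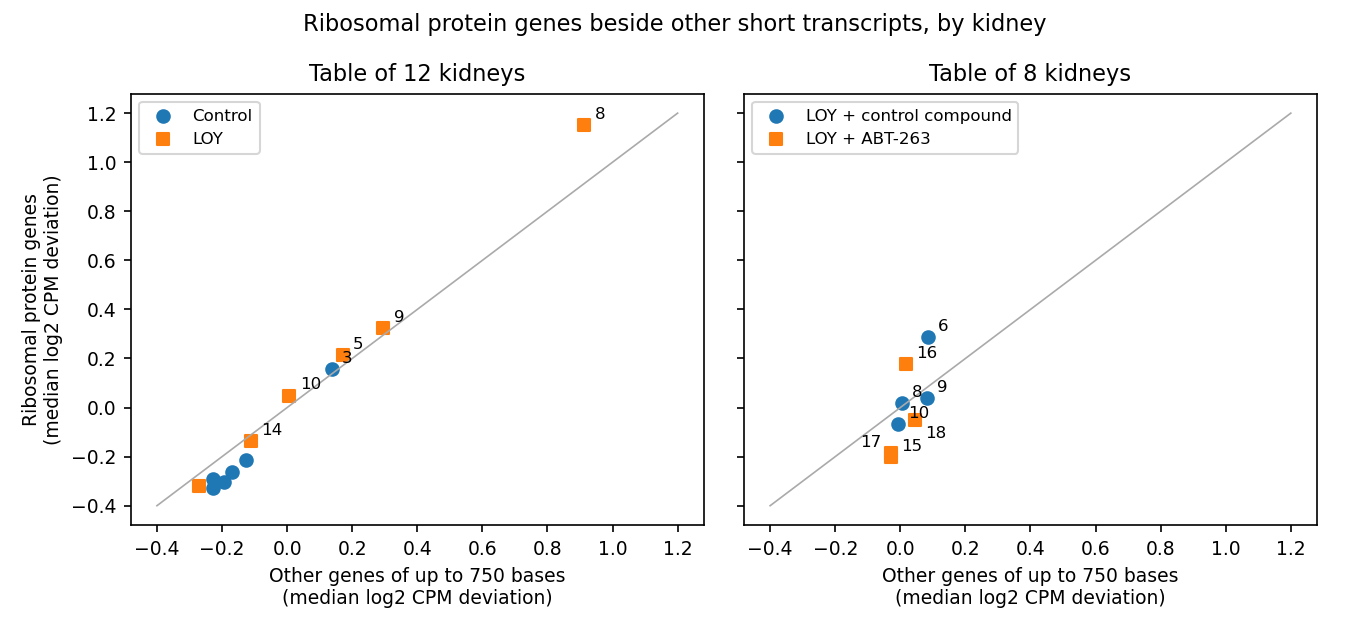
Median log2 CPM deviation of ribosomal protein genes (y axis) against that of other genes with transcripts of up to 750 bases (x axis), 1 point per kidney, labelled with the animal number where points allow; the grey line marks equal values. In the table of 12 kidneys the points run from −0.33 to 1.15 on the y axis. Those with values above 0 lie above the line, LOY animal 8 most (1.15 against 0.91), and those below 0 lie below it. In the table of 8 kidneys animals 6 and 16 lie furthest above the line.

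Markers of immune cells were also higher in LOY kidneys. All 9 T cell markers tested had log2 fold changes above 0 and 3 rose, Cd3d, Cd3g and Cd2 (edgeR adjusted p under 0.05); their summed level was 11.2 to 16.2 CPM in Control and 24.8 to 39.5 CPM in LOY kidneys. Of 9 macrophage markers 6 rose, with sums of 230 to 383 CPM and 441 to 586 CPM. Proximal tubule markers summed to 16091 to 21813 CPM in Control and 8380 to 17342 CPM in LOY kidneys, with 0 of 10 passing. None of these 3 lists had a marker at 0 in every kidney. The 3 highest T cell sums were 39.5, 37.0 and 34.4 CPM in LOY animals 14, 8 and 18. Ribosomal protein shares in these kidneys were 2.65%, 5.53% and 2.49%, the highest and the 2 lowest of the LOY group. Control animal 3, with the highest Control share, had the highest macrophage sum (383 CPM) and lowest proximal tubule sum (16091 CPM) of its group. In the LOY group those extremes were in animal 10 (586 and 8380 CPM), at a share of 3.35%. LOY animal 8 had 557 and 11465 CPM. The part of cell makeup in the ribosomal protein values was not tested.

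Other lists of genes of ribosome production and translation had smaller medians than the ribosomal protein genes, though single genes in them did not. The lists were not matched for transcript length. Of 48 ribosome biogenesis factors none passed the test, with a median of 0.12, and of 15 genes of the RNA polymerase I machinery none, with a median of 0.07. Nop56, a core protein of box C/D particles, had a log2 fold change of 0.65 ± 0.20 (edgeR adjusted p = 0.110). Among 25 other genes with TOP mRNAs the median was 0.23 and 1 rose: Vim, the filament protein vimentin, from 67.5 ± 18.6 to 138 ± 54.0 CPM (SD), a log2 fold change of 1.03 ± 0.24 (edgeR adjusted p = 0.048). Of 9 genes listed as elongation factors 1 rose, Eef1e1, which encodes a scaffold of the aminoacyl-tRNA synthetase complex. It went from 13.6 ± 1.05 to 21.2 ± 4.22 CPM, at 0.64 ± 0.14 (edgeR adjusted p = 0.043). None of 36 initiation factors (median 0.11), 20 cytosolic aminoacyl-tRNA synthetases (0.11), 30 mTOR and S6 kinase genes (−0.05) or 19 genes of ribosome quality control (−0.09) passed. Mitochondrial ribosomal proteins had a median of 0.20 with 61 of 75 above 0, and none passed.

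Some ribosomal proteins made as fusions or named otherwise were outside the symbol rule. Fau, which encodes RPS30, had a log2 fold change of 0.50 ± 0.22, and Gnb2l1, the scaffold RACK1, 0.65 ± 0.25. The translation repressor Larp1 stood at −0.15 ± 0.09, Mtor at −0.23 ± 0.17 and the S6 kinase gene Rps6kb1 at 0.11 ± 0.09. None of these 5 passed the test.

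The promoters of the standard subunit genes were searched for sequence features, and 6 are shown, for the extremes of the LOY comparison that RefSeq covers. Each runs from 60 bases before to 20 bases after the RefSeq transcription start, 5′ to 3′ on the strand of the gene, in build GRCm38.p6. Capitals mark the longest run of C and T within 15 bases of the start, and any CTTCCG or its complement CGGAAG, the core that ETS factors bind. The first 3 are among the highest log2 fold changes and the last 3 among the lowest. They lie at chr7:4792905-4792984 (Rpl28, plus strand), chr11:114668520-114668599 (Rpl38, plus), chr2:32961652-32961731 (Rpl12, plus), chr9:64173327-64173406 (Rpl4, plus), chrX:102189372-102189451 (Rps4x, minus) and chr5:107900468-107900547 (Rpl5, plus).
Rpl28: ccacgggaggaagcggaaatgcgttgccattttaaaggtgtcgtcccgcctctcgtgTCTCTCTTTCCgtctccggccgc
Rpl38: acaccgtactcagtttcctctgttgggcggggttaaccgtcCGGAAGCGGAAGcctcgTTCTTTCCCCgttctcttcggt
Rpl12: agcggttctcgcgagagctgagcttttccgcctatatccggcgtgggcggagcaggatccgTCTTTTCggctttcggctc
Rpl4: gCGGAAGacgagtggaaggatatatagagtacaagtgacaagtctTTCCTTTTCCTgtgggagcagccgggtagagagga
Rps4x: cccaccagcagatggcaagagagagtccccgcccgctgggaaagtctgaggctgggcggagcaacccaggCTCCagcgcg
Rpl5: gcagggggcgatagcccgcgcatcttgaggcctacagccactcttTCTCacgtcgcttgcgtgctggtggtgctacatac
Within 15 bases of the start the runs held 11, 10 and 7 bases in Rpl28, Rpl38 and Rpl12, and 11, 4 and 4 bases in Rpl4, Rps4x and Rpl5. Those of Rpl4 and Rpl5 go on upstream of that window, to 14 and 9 bases in all.

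Of the 77 standard subunit genes, 57 had a RefSeq promoter of 300 bases (250 before to 50 after the start). CTTCCG on either strand was found in 70.2% of the 57 and in 17.2% of all 27025 promoters. AAGATGGC, the core of YY1 sites, was in 8.77% and 2.87%, on either strand and counted apart from CTTCCG. A run of at least 8 pyrimidines, counting only bases within 15 of the start, was in 40.4% of the 57 and in 11.8% of all promoters. The median longest run was 6 bases in the 57 and 4 bases in all. Counted so, 11 of the 28 with lower log2 fold changes and 11 of the 28 with higher ones had such a run.

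ABT-263 was compared with the control compound in LOY kidneys. Ribosomal protein genes took 1.82% ± 0.166 of the counts with the control compound (SD, n = 4) and 1.69% ± 0.236 with ABT-263 (SD, n = 4). The shares were 2.05%, 1.78%, 1.77% and 1.67% in animals 6, 8, 9 and 10, and 1.53%, 2.03%, 1.53% and 1.68% in animals 15, 16, 17 and 18. Animals 6 and 16 were the highest of their groups, and the groups overlapped. All animals with the control compound are numbered up to 10 and all with ABT-263 above 10, so treatment and animal number cannot be told apart.

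The log2 fold change of ABT-263 against control compound was below 0 for 83 of 89 ribosomal protein genes, with a median of −0.14. Of all 16956 genes tested, 49.4% lay above 0 and the median was −0.00. None of the 89 passed the test (edgeR adjusted p under 0.05), and 0.00% of all genes tested did. At an unadjusted p under 0.05, 3 of the 89 were lower, Rps12, Rpl19 and Rpl37rt, beside 2.96% of all genes. DESeq2 and voom called 0 of the 89, and 0.259% and 0.0413% of all genes tested. The lowest adjusted p was 0.816, for Rps12. Only Rpl24 had groups that did not overlap (lower with ABT-263, as in 2.25% of all genes), at 2.6, 3.0, 2.9 and 3.0 CPM against 2.4, 2.5, 1.9 and 2.3 CPM.

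All 43 large subunit genes lay below 0, between −0.34 and −0.04, with a median of −0.14. Rpl19 had 292, 244, 246 and 252 CPM with the control compound (animals 6, 8, 9 and 10) and 213, 245, 204 and 232 CPM with ABT-263 (animals 15 to 18). Its log2 fold change was −0.21 ± 0.09 (edgeR adjusted p = 0.827), with animal 16 inside the range of the controls. Rpl26, at −0.19 ± 0.09, Rpl10a, at −0.21 ± 0.11, and Rpl37, at −0.21 ± 0.11, were the next large subunit genes by p. Rpl39, the short protein that lines the exit tunnel and was below the level minimum in the first table, had 139, 103, 113 and 90.2 CPM against 84.0, 109, 85.5 and 96.8 CPM, at −0.24 ± 0.13. Rpl5 stood at −0.21 ± 0.13 and Rpl11 at −0.16 ± 0.11. Rpl3 stood at −0.04 ± 0.12 and Rpl10 at −0.09 ± 0.11.

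Of 31 small subunit genes 30 lay below 0, with a median of −0.15. Rps12 had 109, 124, 92.4 and 101 CPM with the control compound and 67.3, 105, 78.2 and 84.2 CPM with ABT-263. Its log2 fold change was −0.34 ± 0.14, and animal 16 again lay among the controls. Rps21, Rps29 and Rps20 were the next small subunit genes by p, at −0.31 ± 0.15, −0.34 ± 0.17 and −0.23 ± 0.12. Rps2 was the only small subunit gene above 0, at 0.05 ± 0.12. Rps6 stood at −0.12 ± 0.11, Rps19 at −0.12 ± 0.12, Rps4x at −0.14 ± 0.11 and Rpsa at −0.03 ± 0.12. The stalk genes stood at 0.01 ± 0.13 (Rplp0), −0.05 ± 0.11 (Rplp1) and −0.05 ± 0.11 (Rplp2).

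Rps27a had a wide spread in the second table, while its within-group correlation with the mean of the others was 0.92. Its values were 159, 75.9, 82.0 and 82.8 CPM with the control compound and 49.9, 197, 58.7 and 69.5 CPM with ABT-263, so animals 6 and 16 had more than the others of their groups by a wide margin. Its log2 fold change was −0.09 ± 0.50. Rps27rt, a retrotransposed copy of Rps27 on chromosome 9, had 123, 24.8, 47.0 and 22.1 CPM against 53.7, 22.5, 21.2 and 22.1 CPM, and the widest change of the set, −0.86 ± 0.64. Its parent Rps27 stood at −0.10 ± 0.18. The other copies and paralogs had low levels or small changes: Rpl22l1 0.07 ± 0.24, beside −0.13 ± 0.10 for Rpl22, Rps27l −0.09 ± 0.09, Rpl7l1 −0.09 ± 0.10, Rps19bp1 −0.22 ± 0.13, Rpl3l −0.47 ± 0.37, Rps23rg1 0.36 ± 0.30, Rps3a2 0.08 ± 0.27, Rps4l 0.17 ± 0.18, Rpl37rt −0.39 ± 0.17, Rpl6l −0.21 and Rps3a3 −0.11.

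Within groups the median correlation between 2 genes over the 8 kidneys was 0.81, and 67 of 89 genes had a correlation above 0.8 with the mean of the others. The 8 genes below 0.5 included Rps10 (−0.96), Rpl7l1 (−0.50) and Rpl24 (0.01); Rps10 and Rpl24 were counted at 3.34 and 2.60 CPM in this table. Coding length and log2 fold change had Spearman's correlations of 0.36 over 83 genes and 0.44 over 77 standard subunits. The 19 shortest standard subunits had a median of −0.21 and the 19 longest −0.11. Other genes by transcript length ran from −0.05 (up to 500 bases) to 0.05 (above 5000 bases), and with that trend taken out the median of the ribosomal protein genes was −0.10.

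Animals 6 and 16 were left out in an alternative chosen because they stood highest for these genes. Then 2 of the 89 passed as lower, Rps20 and Rps27a (edgeR adjusted p under 0.05), beside 1.02% of all genes tested that passed as lower; with kidneys left out on these genes' own values, the count is a description. T cell markers summed to 15.3 to 36.6 CPM with the control compound and 12.9 to 20.2 CPM with ABT-263, and macrophage markers to 424 to 708 and 388 to 435 CPM; 0 of 10 in each list passed. Their part in the ribosomal protein values was not tested. None of the genes in the 9 other lists on translation and ribosome production passed the test. Median log2 fold changes were −0.11 for 25 other TOP mRNAs, −0.08 for 50 biogenesis factors, −0.09 for 37 initiation factors, −0.05 for 9 elongation factors, −0.09 for 15 RNA polymerase I genes and −0.07 for 77 mitochondrial ribosomal proteins. They were 0.00 for 34 mTOR and S6 kinase genes, −0.01 for 20 quality control genes and 0.07 for 20 aminoacyl-tRNA synthetases. Eif1, the start codon scanning factor, had 287 ± 19.3 and 229 ± 18.4 CPM (SD), a log2 fold change of −0.33 ± 0.09 with an adjusted p of 0.657 (edgeR).

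Set side by side, 76 of the 82 genes in both tables were above 0 in LOY against Control and below 0 in ABT-263 against control compound (no kidney library is in both comparisons). Of all 14096 genes tested in both tables, 31.6% had these signs. Since the ribosomal protein genes follow nearly 1 value per kidney, the 82 are not separate observations. The remaining 6 were Rpl4 and Rps4x, below 0 in both, and Rplp0, Rps2, Rpl22l1 and the Rps4 copy on chromosome 6, above 0 in both. In the first comparison animals numbered up to 10 make up most of the LOY group, and in the second the whole of the control compound group.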

How the data were processed

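Gene counts of 12 and 8 kidneys were used as the authors deposited them, in 2 tables of whole-number counts. The submitters' processing notes name the build mm10; which aligner, counter and gene models were used, and whether strand was used, was not stated. An entry for reads without a gene (0.223% to 0.401% of counts) was left out of the first table. Each table was fitted on its own with edgeR 4.0.16 (R 4.3.3): filterByExpr with a minimum count of 10, TMM scaling, robust quasi-likelihood F test, Benjamini-Hochberg adjustment over all genes tested, threshold 0.05. CPM are counts over TMM-scaled totals; log2 CPM used a prior count of 2. Alternatives used DESeq2 1.42.0, voom with sample weights (limma 3.58.1), other scalings and filters, removal of a length trend (lowess span 0.3) and kidneys left out. Lengths and positions came from the GENCODE annotation of GRCm38, and promoters from RefSeq (GRCm38.p6). The fit was also run on simulated data in which genes were drawn independently and no kidney was outlying. That run does not cover genes that move together, and its outcome is not given here. Total counts per kidney, 13332563 to 20791633 over all kidneys, set the counting error, and the errors given also hold the spread between animals. Groups followed the labels.

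The members, the other gene lists, the motifs and the tests were chosen with earlier results of these data known. All members were counted. Those named with values were the 4 of lowest p in each subunit and the 2 highest and 2 lowest by log2 fold change. The 3 highest and lowest levels per kilobase and the stalk genes were also named. So were genes with a known function, partner or disease, and every paralog or other gene that the symbol rule caught. Rpl38 and the genes of low correlation were named after their values were seen. The values of a few other genes are not reported here.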

Additional observations from a re-analysis of the deposited data

Results flagged for a closer look

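A kidney was singled out where its gap to the nearest other kidney of its group, as a share of the range of the group, exceeded Dixon's 95% value. Chance alone does so in about 1 of 20 groups. It did so 39 times among 72 values of a group in the first table and 9 times among 80 in the second; since the genes move together, these are not independent.

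Control animal 3 stood above the other Control kidneys in its share of counts from ribosomal protein genes (3.27%, the others at most 2.51%) and in their median log2 deviation (0.157, the others at most −0.213). It did so for these genes, with its CPM: Rpl11 427, Rpl12 382, Rpl22 206, Rpl22l1 45.7, Rpl28 597, Rpl36al 146, Rpl41 575, Rpl7l1 100.3, Rplp0 1106, Rplp1 874, Rplp2 389.9, Rps12 526, Rps19 416, Rps21 247, Rps23 346, Rps27a 332, Rps27l 188, Rpsa 1078.

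LOY animal 8 stood above the other LOY kidneys with a share of 5.53%, the next being 3.54%. Its CPM stood apart for Rpl11 1033, Rpl12 904, Rpl22 349.5, Rpl27 715, Rpl28 1737, Rpl3 641, Rpl36 1121, Rpl36a 338, Rpl7 1080.3, Rplp1 1917, Rplp2 785, Rps12 1042, Rps19 967, Rps19bp1 67.3, Rps23 699, Rps27 617, Rpsa 2273. Control animal 16 stood below its group for Rpl13, at 29.6 CPM.

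In the second table, animal 6 with the control compound stood above its group in CPM for Rpl19 292, Rpl3 482, Rplp0 729, Rps27a 159, Rpsa 487. With ABT-263, animal 16 stood above for Rps20 148, Rps27a 197, animal 15 for Rps27rt 53.7 and animal 18 for Rps3a2 3.11.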

How the results depend on the processing

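No ribosomal protein gene passed the edgeR test in either comparison. This held under the other scalings and filters, DESeq2, the length correction and with 1 kidney left out. Voom with sample weights called 2 higher in LOY, beside 7.19% of all genes called in either direction. Leaving out animals 6 and 16 gave 2 lower with ABT-263, beside 1.02% of all genes tested. Those 2 animals were left out on these genes' own values, so that count is a description. In each of these alternatives the median stayed above 0 for LOY and below 0 for ABT-263. Single genes were followed only where the naming rules above picked them, not for all members. For LOY they kept their side of 0 and of the threshold in 406 of 408 values with 1 kidney left out. In the other alternatives they did so in 407 of 442. For ABT-263 the counts were 280 of 304 and 373 of 380. The cause of the changes below was not tested, except that leaving kidneys out leaves fewer samples. Depth was not varied.

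Leaving out 1 kidney in turn moved the median of the members between 0.26 and 0.63 for LOY, the lowest without LOY animal 8, and between −0.21 and −0.061 for ABT-263. The difference in share ran from 0.521 to 1.13 percentage points and from −0.240 to −0.0484. Over all genes the calls, 176 for LOY and 0 for ABT-263, ran from 0 to 607 (0 without Control animal 16 or 17, 607 without Control animal 3) and from 0 to 9.

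The calls over all genes in LOY were 105 with library totals alone, 866 with DESeq2, 1077 with voom, 549 at an adjusted p of 0.1, 0 with the number term, 44 with it and without LOY animal 8, 451 among animals above 10 and 29 without LOY animals 8 and 10. The median of the members was 0.063 among animals above 10 and 0.050 with the number term and without LOY animal 8. With ABT-263 the calls over all genes were 44 with DESeq2, 7 with voom and 388 without animals 6 and 16.

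Among the genes so followed, these log2 fold changes of LOY against Control crossed 0. With the number term they were −0.0073 (Rpl22l1), −0.030 (Rpl3), −0.014 (Rpl41) and 0.011 (Rps4x). Without LOY animal 8 as well, they were −0.12 (Rpl22l1), −0.029 (Rpl28), −0.073 (Rpl3), −0.011 (Rpl36), −0.068 (Rpl36al), −0.13 (Rpl3l), −0.083 (Rpl41), −0.013 (Rplp0), −0.0061 (Rplp1), −0.067 (Rplp2), −0.0094 (Rps19bp1) and 0.060 (Rps4x). Among animals above 10 they were −0.19 (Rpl22l1), −0.048 (Rpl28), −0.074 (Rpl3), −0.037 (Rpl36), −0.061 (Rpl36al), −0.0010 (Rpl41), −0.025 (Rplp2), −0.037 (Rps19bp1) and 0.16 (Rps4x). With the length trend taken out they were −0.043 (Rpl22l1), −0.092 (Rpl3), −0.090 (Rpl41) and −0.099 (Rps9). With voom they were −0.034 (Rpl3) and 0.039 (Rps4x), and without LOY animals 8 and 10 −0.078 (Rpl3) and 0.036 (Rps4x). With 1 kidney left out the ranges were −0.040 to 0.060 (Rpl3) and −0.12 to 0.038 (Rps4x).

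With ABT-263, voom gave −0.015 (Rplp0) and −4.2e-04 (Rps2), and leaving out animals 6 and 16 gave −0.023 (Rplp0), −0.031 (Rps2) and 0.051 (Rps27rt). With 1 kidney left out the ranges were −0.099 to 0.25 (Rpl22l1), −0.13 to 0.059 (Rpl3), −0.10 to 0.092 (Rplp0), −0.14 to 0.018 (Rplp1), −0.14 to 0.036 (Rplp2), −0.072 to 0.12 (Rps2), −0.22 to 0.070 (Rps27), −0.75 to 0.23 (Rps27a), −0.051 to 0.29 (Rps3a2) and −0.16 to 0.028 (Rpsa).

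The fit without LOY animal 8 but with the number term, the number term as a value of its own, and the fit without animals 6 and 16 were added after the data were seen. No paired analysis was possible because the groups compared share no animal number.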
